A study of Mus musculus with 8 samples.

Results

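The genes described here move iron into the cell, store it, export it or sense it. They are Tfrc, Slc11a2, Slc11a1 and Steap3 on the uptake side, Fth1 and Ftl1 in storage, Slc40a1 in export, and Aco1 and Ireb2 as regulators. They were found by matching the gene name that the array files give each probe, which returned 9 of 31784 gene names, with 13 of 39429 probes on 22 of 43020 probe spots. The probe rule used no measured value. Of the 9 genes, 8 had a probe that passed the filter on dim probes, and Slc40a1 did not.

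The arrays measured mRNA in C10 cells, HAFTL-derived mouse pre-B cells in which the transcription factor C/EBPα can be switched on and drives them towards a macrophage-like state. Arrays were made of 4 groups, namely the line labelled Tet2 knockdown after 24 h of induction, the same line at 0 h, the line with a control short hairpin RNA after 24 h, and that control line at 0 h. For induction the medium received M-CSF and IL-3 (10 ng/ml of each) and estradiol at 100 nM, and all 4 groups carried a hairpin and the inducible factor. Each group had n = 2 arrays that the series describes as technical duplicates, so the tests take no account of the spread between cultures. The labels name 1 line per hairpin, so a difference between the lines cannot be told apart from a difference between these particular cell populations.

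Levels are log2 of the scanner's processed signal relative to the array's 75th percentile, so 0 is the 75th percentile of that array. Each gene is represented by its brightest probe that passed the filter. A gene was called where limma's Benjamini-Hochberg adjusted p over all 16153 genes tested was under 0.05 with a change of at least 2-fold, and "rose" and "fell" are used only of called genes. Values after ± are standard errors of the limma fit unless SD is stated. Levels of different probes are not compared with each other, since probes differ in brightness. Probe positions are those in the array files, on build mm9, and no exon annotation of that build was used here.

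Cells take up most of their iron as transferrin bound to the transferrin receptor, which is carried into endosomes. There a reductase of the Steap family converts ferric to ferrous iron and a divalent metal transporter carries it into the cytosol. Iron that is not used is stored in the ferritin shell, made of heavy and light chains, or leaves through ferroportin, the iron exporter of mammalian cells. Iron regulatory proteins bind stem-loops in these mRNAs when iron is scarce, which protects the transferrin receptor mRNA and blocks ferritin translation. Macrophages are known for recycling iron from engulfed red cells, and in phagosomes they use a transporter of their own, Nramp1, the product of Slc11a1.

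The upstream sequences of the genes that moved most are shown because the induced factor binds DNA at C/EBP sites, and the stretches let a reader see which letters lie before each start. RefSeq's table for build GRCm38.p6 held a window for 7 of the 9 genes, in 12 windows that run from 250 bases before to 50 bases after each start site. Slc11a2 and Slc40a1 were not matched. The 250 bases before the start are printed 5′ to 3′ on the gene's strand, with matches to the C/EBP letters TTNCNNAA on either strand in capitals. The stretch of Slc11a1 is chr1:74374953-74375202 on the plus strand, that of Tfrc is chr16:32608646-32608895 on the plus strand at the first of 2 listed starts, that of Fth1 is chr19:9982396-9982645 on the plus strand at the second of 2 listed starts, and that of Ftl1 is chr7:45459887-45460136 on the minus strand.
Slc11a1: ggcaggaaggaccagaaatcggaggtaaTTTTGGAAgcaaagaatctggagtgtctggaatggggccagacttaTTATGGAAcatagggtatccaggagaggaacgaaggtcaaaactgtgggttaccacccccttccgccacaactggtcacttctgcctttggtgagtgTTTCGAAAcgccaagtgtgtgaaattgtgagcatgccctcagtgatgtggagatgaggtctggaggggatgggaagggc
Tfrc: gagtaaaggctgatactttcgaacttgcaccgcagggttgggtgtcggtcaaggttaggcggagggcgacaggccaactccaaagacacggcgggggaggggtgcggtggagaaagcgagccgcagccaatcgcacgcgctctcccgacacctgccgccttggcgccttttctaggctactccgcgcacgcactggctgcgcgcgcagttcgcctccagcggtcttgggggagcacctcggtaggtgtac
Fth1: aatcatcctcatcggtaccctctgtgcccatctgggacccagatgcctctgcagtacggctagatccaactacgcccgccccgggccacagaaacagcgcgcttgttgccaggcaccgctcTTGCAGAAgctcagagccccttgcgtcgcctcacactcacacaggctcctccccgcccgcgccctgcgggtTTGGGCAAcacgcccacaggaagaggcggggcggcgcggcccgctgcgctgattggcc
Ftl1: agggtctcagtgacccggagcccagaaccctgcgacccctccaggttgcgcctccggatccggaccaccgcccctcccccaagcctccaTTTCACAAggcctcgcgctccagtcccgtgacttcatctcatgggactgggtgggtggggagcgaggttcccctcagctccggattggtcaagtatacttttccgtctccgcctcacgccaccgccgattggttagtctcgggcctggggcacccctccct

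The Slc11a1 stretch held 3 matches to the C/EBP letters, whose first bases lay 222, 176 and 79 bases before the start. The Fth1 stretch at the second start held 2, at 129 and 58 bases, the Ftl1 stretch held 1, at 161 bases, and neither Tfrc window held any. Outside the printed stretches, matches lay at 14, 223 and 170 bases in separate windows of Steap3, which did not rise. The first Fth1 window held a match at 152 bases, while another Steap3 window and the Aco1 and Ireb2 windows held none. Among all 32851 windows of the table, 40.7% held at least 1 match and 3.6% held 3 or more, so 1 match is common and 3 are uncommon. The Slc11a1 window also held GAGGAA, the core letters of PU.1 sites, 152 bases before the start and apart from the C/EBP matches, and 28.3% of all windows hold these letters on either strand. They also lay in Steap3 windows, 184 and 161 bases before the start, and in the Ireb2 window, 12 and 42 bases after it. Neither Steap3 nor Ireb2 rose, and the Tfrc, Fth1, Ftl1 and Aco1 windows held none. No window of the 7 genes held the E-box letters CACGTG, which 7.15% of windows hold, or the antioxidant response letters TGACNNNGC, which 12.4% hold. CpG dinucleotides numbered 30 in each Tfrc window and 28 in the Ireb2 window, against 7 in the Slc11a1 window and a median of 7 over all windows. The printed Fth1 window held 27, the other Fth1 window 4 and the Ftl1 window 20. The Aco1 window held 14 and the Steap3 windows 4 to 16, so the counts did not follow the direction of change. These matches describe letters, and no binding or methylation was measured in these arrays.

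Induction moved 2 of these genes far and in opposite directions in both lines. Slc11a1 rose 31.9-fold in the line labelled knockdown and 31.8-fold in the control line. Tfrc fell 7.96-fold in the line labelled knockdown and 3.1-fold in the control line, and this difference between the lines passed the test. The ferritin chains Fth1 and Ftl1 rose by just over 2-fold in the line labelled knockdown and stayed under the 2-fold line in control cells. Slc11a2, Aco1, Ireb2 and Steap3 were not called in any comparison.

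In the line labelled knockdown, 3 of the 8 tested genes rose on induction and 1 fell, against 16.7% of all genes tested that rose and 15.4% that fell. In the induction of the control line, 1 rose and 1 fell, against 14.2% of all genes that rose and 13.1% that fell. Between the lines, no iron gene was called at 0 h, where 0.334% of all genes were higher and 1.39% lower in the line labelled knockdown. None was called at 24 h either, where 1.04% were higher and 0.997% lower. At an unadjusted p under 0.05 limma gave 3 of the 8 at 0 h, beside 4951 of all 16153 genes tested, and 4 of the 8 at 24 h, beside 5055 of all 16153. For the difference between the inductions, 1 of 8 was lower, against 2.36% of all genes higher and 1.46% lower. The median log2 change of the 8 genes was 0.07 in the line labelled knockdown and 0.24 in the control line, beside a median over all genes of 0.14 in the line labelled knockdown and -0.00012 in the control line.

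**Figure D1:**
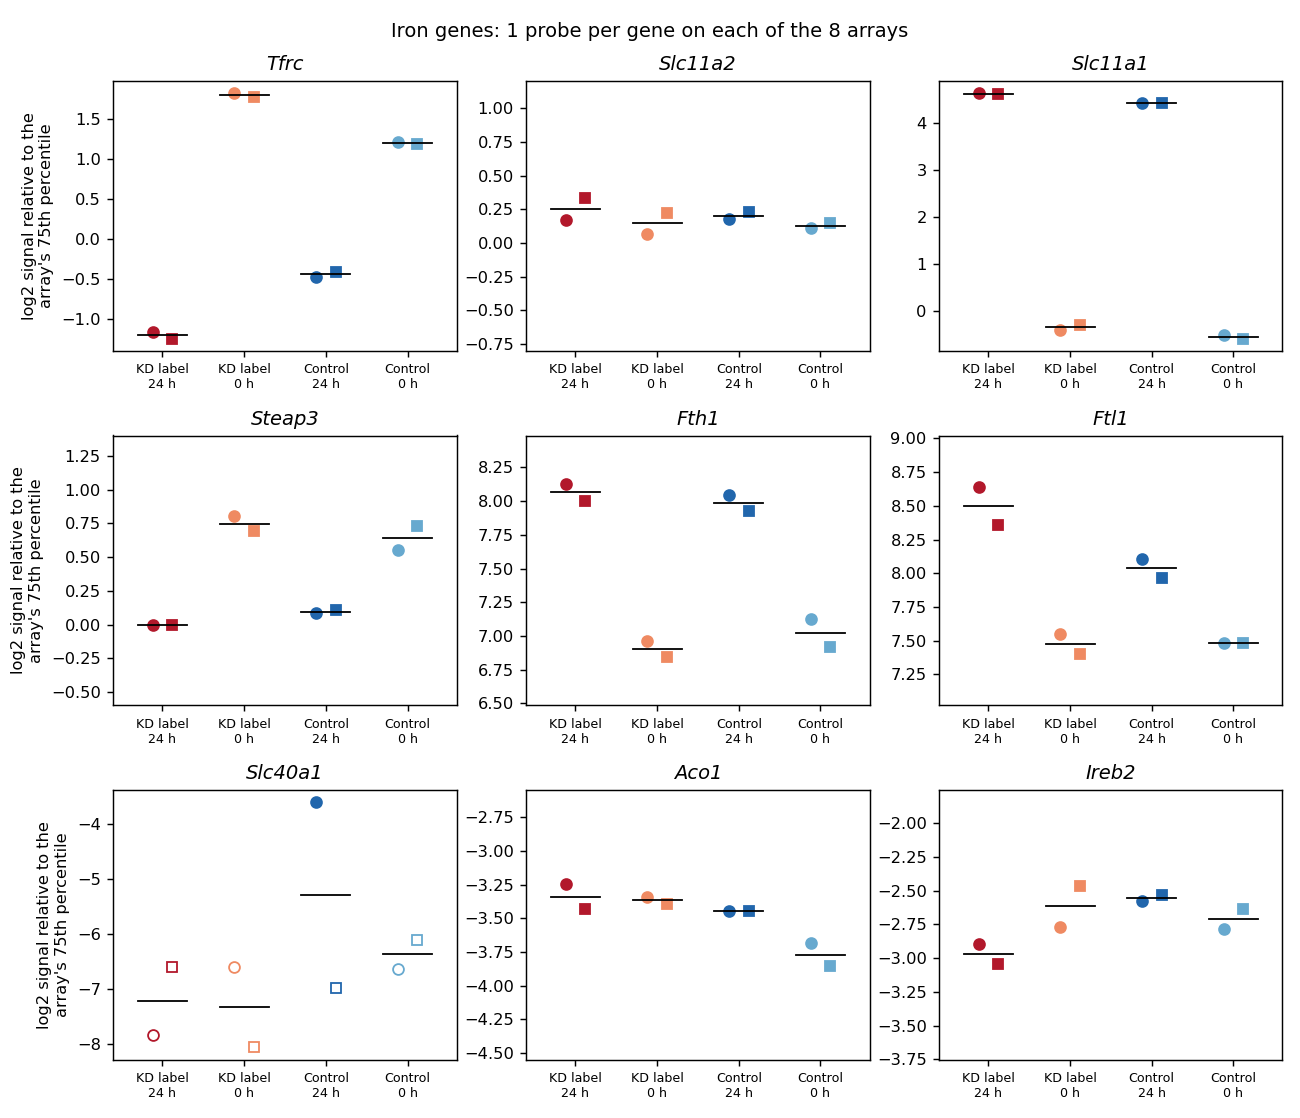
Level of each iron gene on the 8 arrays, as log2 signal relative to the array's 75th percentile (vertical axis, scaled to each gene), with the line labelled knockdown (KD label) left of the control line and 24 h left of 0 h. Circles are replicate 1 and squares replicate 2, open symbols are not well above background, and bars are means of 2 arrays: Tfrc is low and Slc11a1 high on all 4 arrays at 24 h, and Slc40a1 is above background on 1 array.

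Tfrc encodes the transferrin receptor, the main entry route for iron. The line labelled knockdown had a level of -1.15 and -1.24 at 24 h, against 1.82 and 1.78 at 0 h. Control cells had -0.47 and -0.41 at 24 h, against 1.20 and 1.18 at 0 h. The 4 groups did not overlap, and the line labelled knockdown held both the highest group, at 0 h, and the lowest, at 24 h. The log2 change of Tfrc on induction was -2.99 ± 0.06 in the line labelled knockdown (limma adjusted p = 1.1e-06) and -1.63 ± 0.06 in the control line (limma adjusted p = 8.2e-06). In these bulk arrays fewer cells with a transcript and less transcript per cell cannot be told apart.

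The difference between the 2 inductions of Tfrc was -1.36 ± 0.09 on the log2 scale (limma adjusted p = 0.0025), a fall 2.56 times as deep in the line labelled knockdown. It had a part at each time. At 0 h Tfrc was 1.52-fold higher in the line labelled knockdown (log2 difference 0.60 ± 0.06, limma adjusted p = 0.0051), and at 24 h it stood at 59.2% of control (log2 difference -0.76 ± 0.06, limma adjusted p = 0.0029). Neither of these reached 2-fold, so neither was called. The difference between the inductions was called under all 19 alternative settings run, where it lay between -1.5 and -1.24 with adjusted p up to 0.0436. These settings are not independent, and the one without the fold minimum could not lose the call. Quantile normalization and the authors' deposited table gave the same value. The difference was -1.30 within slide 1 and -1.42 within slide 2.

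Tet2, the gene targeted by the hairpin, was not lower by limma's test in the line labelled knockdown, which stood at 100.4% of control at 24 h (limma adjusted p = 0.98) and 92.8% at 0 h (limma adjusted p = 0.53). A second Tet2 probe gave a log2 difference of 0.16 ± 0.13 at 24 h (limma adjusted p = 0.49) and -0.28 ± 0.13 at 0 h (limma adjusted p = 0.23). Directions between the lines are therefore given for the line as labelled. All 12 pre-B markers were well above background on every array. At 24 h their summed level was 425 to 443 times the array's 75th percentile in the line labelled knockdown, against 304 to 330 in control cells, without overlap. Vpreb1 weighed most in that sum, at a log2 level of 7.59 in the line labelled knockdown and 6.89 in the control line. Single markers varied: the log2 difference between the lines at 24 h was 0.71 for Vpreb1 and -0.45 for Rag1, none of the 12 was called, and the lines overlapped for Ebf1, Cd79a and Rag2. At 0 h the sums overlapped, at 577 to 651 in the line labelled knockdown and 610 to 649 in control cells. Their part in the Tfrc difference was not tested.

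Tfrc was measured by 3 probes, and both that were well above background at 24 h gave the same order of the 4 groups. The brightest, with 10 spots per array, maps to mm9 chr16:32632255-32632314 and another with 1 spot to chr16:32620470-32620529. The probe A_51_P167876 spans chr16:32624877-32625093, which is 217 bases of genome for 60 bases of probe and so crosses at least 1 splice junction. Its sequence is shown because it reads spliced mRNA:
A_51_P167876: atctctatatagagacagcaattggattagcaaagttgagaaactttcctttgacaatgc
On the 1-spot probe A_65_P06446 the level in the line labelled knockdown was -2.69 and -2.53 at 24 h, against 0.78 and 0.03 at 0 h. The control arrays gave -1.61 and -1.67 at 24 h, against -0.19 and -0.35 at 0 h. That probe gave a difference between the inductions of -1.64 ± 0.34 (limma adjusted p = 0.034). The splice-crossing probe was not well above background on any array at 24 h. There Tfrc fell at least 4.50-fold in the line labelled knockdown and at least 2.60-fold in the control line, each measured against the lowest signal well above background. Its fitted difference between the inductions was -1.18 ± 0.16 (limma adjusted p = 0.014), which rests on the dim 24 h arrays.

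**Figure D2:**
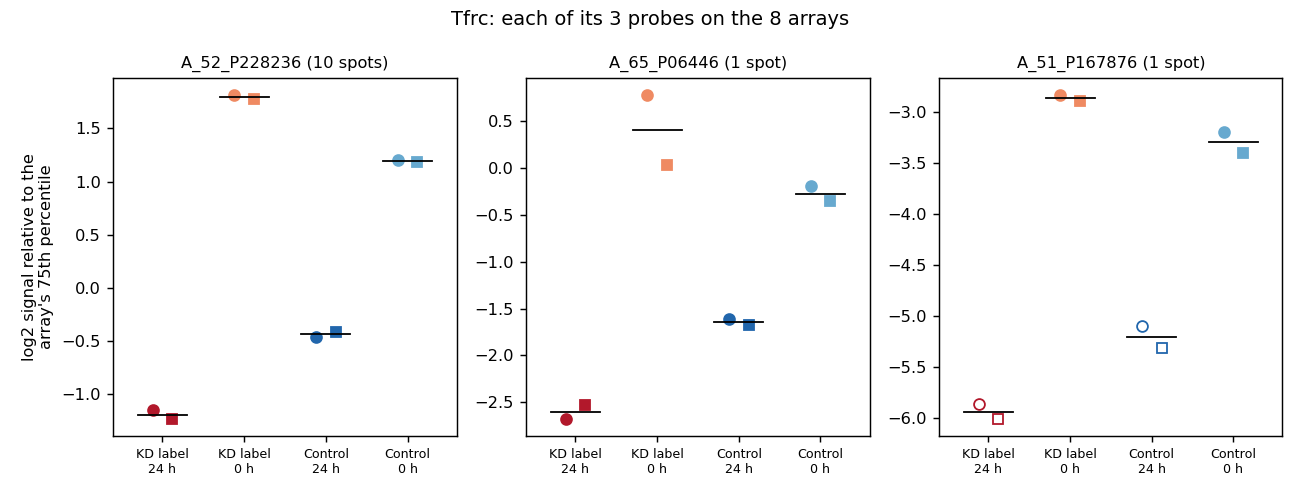
Level of Tfrc on each of its 3 probes, as log2 signal relative to the array's 75th percentile (vertical axis, scaled to each probe), on the 8 arrays. Circles are replicate 1, squares replicate 2, bars means of 2 arrays and open symbols not well above background: on every probe the line labelled knockdown is highest at 0 h, and on both probes measured at 24 h it is lowest at 24 h, while A_51_P167876 was not well above background on any array at 24 h.

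Slc11a1 encodes Nramp1, a transporter that moves divalent metals out of the phagosome of macrophages. Its level in the line labelled knockdown was 4.65 and 4.62 at 24 h, against -0.42 and -0.30 at 0 h. For the control line the values were 4.44 and 4.43 at 24 h, against -0.52 and -0.60 at 0 h. Every array at 24 h lay far above every array at 0 h. On induction it rose by 5.0 ± 0.07 on the log2 scale in the line labelled knockdown, or 31.9-fold (limma adjusted p = 5.9e-07), and by 4.99 ± 0.07 in the control line, or 31.8-fold (limma adjusted p = 8.4e-07).

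The 2 inductions of Slc11a1 differed by 0.01 on the log2 scale, with a 95% interval from -0.23 to 0.24 (limma adjusted p = 0.97). The line labelled knockdown was higher by 0.20 ± 0.07 at 24 h (limma adjusted p = 0.11) and by 0.20 ± 0.07 at 0 h (limma adjusted p = 0.12), which did not pass the test. The probe lies at mm9 chr1:74432161-74432220. Macrophage markers rose at the same time: 7 of 8 tested were called higher in each induction, and the summed level of the 11 on the array was 961 to 1046 times the 75th percentile at 24 h, against 5.6 to 6.5 at 0 h. Itgam was tested and not called, and Fcgr1, called higher, passed the filter on dim probes only through 24 h groups. Ms4a7 and Mertk were not well above background on any array, and Adgre1 was on only 3. The part of these markers in the rise of Slc11a1 was not tested.

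Slc11a2 encodes the divalent metal transporter that carries iron out of the endosome. The line labelled knockdown had a level of 0.17 and 0.34 at 24 h, against 0.07 and 0.22 at 0 h. Control cells had 0.18 and 0.23 at 24 h, against 0.11 and 0.15 at 0 h. The times overlapped in the line labelled knockdown and lay close together, without overlap, in control cells. The log2 change was 0.11 in the line labelled knockdown, with a 95% interval from -0.11 to 0.32, and 0.08 in the control line, with an interval from -0.14 to 0.29. A dimmer second probe at mm9 chr15:100240516-100240575 gave 0.39 ± 0.14 in the line labelled knockdown (limma adjusted p = 0.048) and 0.22 ± 0.14 in the control line (limma adjusted p = 0.22), both under 2-fold. It lies towards the 5′ end of this minus-strand gene from the first probe, at chr15:100218333-100218392, and is shown because of the 2 it alone gave an adjusted p under 0.05:
A_52_P254298: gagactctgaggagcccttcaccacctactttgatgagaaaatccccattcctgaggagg

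Steap3 encodes the endosomal ferric reductase that works beside the transferrin receptor. Its level in the line labelled knockdown was -0.0024 and -0.00028 at 24 h, against 0.81 and 0.69 at 0 h. The control arrays gave 0.08 and 0.11 at 24 h, against 0.56 and 0.73 at 0 h. All 4 arrays at 24 h lay below all 4 at 0 h. The log2 change was -0.75 ± 0.08 in the line labelled knockdown (limma adjusted p = 0.00042) and -0.55 ± 0.08 in the control line (limma adjusted p = 0.0018), which passed on the adjusted p and stayed under 2-fold. That probe lies at mm9 chr1:122123244-122123303, and a second at chr1:122124269-122124328 gave -0.89 ± 0.14 in the line labelled knockdown and -0.92 ± 0.14 in the control line. The difference between the inductions was -0.20 ± 0.11 on the brighter probe and 0.03 ± 0.20 on the second, and neither passed the test.

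**Figure D3:**
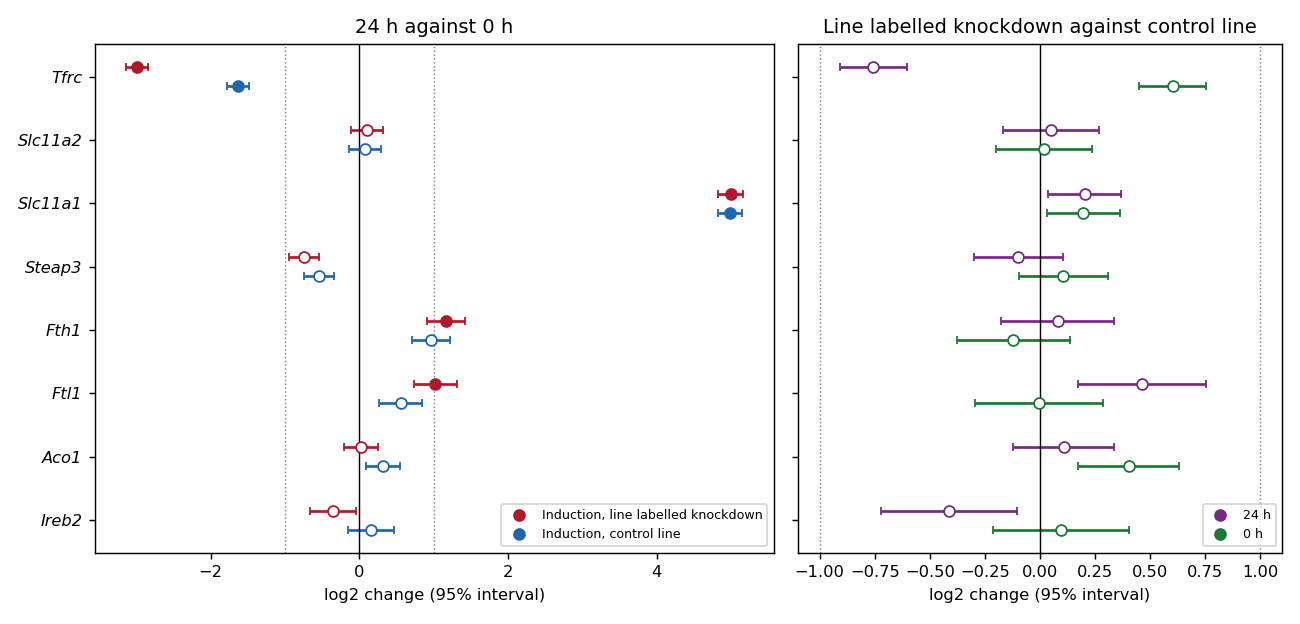
Log2 change of the 8 tested iron genes (horizontal axis) with 95% intervals from the limma fit. The left panel shows 24 h against 0 h in the line labelled knockdown (upper point of each pair) and the control line (lower point), the right panel the difference of the lines, knockdown label minus control, at 24 h (upper) and 0 h (lower), and filled points were called: Tfrc and Slc11a1 lie farthest from 0 in the left panel, and no point is called in the right panel.

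Ferritin stores iron in a shell of heavy chains, which oxidise iron, and light chains, which help form its mineral core. Fth1, the heavy chain, had a level of 8.13 and 8.0 at 24 h in the line labelled knockdown, against 6.96 and 6.84 at 0 h. For the control line the values were 8.05 and 7.92 at 24 h, against 7.13 and 6.92 at 0 h. All arrays at 24 h were higher than all arrays at 0 h, and the lines overlapped at both times. Fth1 rose by 1.16 ± 0.10 on the log2 scale in the line labelled knockdown, or 2.24-fold (limma adjusted p = 0.00018). In the control line the change was 0.96 ± 0.10, or 1.95-fold (limma adjusted p = 0.00046), just under the 2-fold line. The 2 inductions differed by 0.20 ± 0.14 (limma adjusted p = 0.39), so the call in one line alone does not show a difference between the lines.

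Ftl1, the light chain, had a level of 8.64 and 8.36 at 24 h in the line labelled knockdown, against 7.55 and 7.40 at 0 h. Control cells had 8.11 and 7.97 at 24 h, against 7.48 and 7.48 at 0 h. At 24 h both arrays of the line labelled knockdown lay above both control arrays, while at 0 h the lines overlapped. Ftl1 rose by 1.02 ± 0.12 in the line labelled knockdown, or 2.03-fold (limma adjusted p = 0.00054), while in the control line the log2 change was 0.56 ± 0.12, or 1.47-fold (limma adjusted p = 0.0078), without a call. The difference between the inductions was 0.47 ± 0.16 (limma adjusted p = 0.11), and that between the lines at 24 h was 0.46 ± 0.12 (limma adjusted p = 0.056). With the slide as a block the adjusted p in limma was 0.040 for the difference between the inductions and 0.021 at 24 h, and both stayed under 2-fold. Under the other scalings the 24 h difference went down to 0.096. With quantile normalization the difference between the inductions was -0.0030. Before scaling, the processed Ftl1 signal at 24 h was 288120 and 294140 units in the line labelled knockdown, against 301650 and 313380 in control cells.

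Both ferritin calls in the line labelled knockdown sit near the 2-fold line and depended on the scaling. With quantile normalization, and in the authors' deposited table, the log2 changes were 0.77 for Fth1 and 0.60 for Ftl1, and with median scaling they were 0.91 for Fth1 and 0.77 for Ftl1, so neither was called. The Ftl1 call was lost under 7 of 19 alternatives. It was also lost with normexp background correction (0.99) and with the 75th percentile over probes measured on all arrays (0.98). The same held without replicate 1 at 24 h (0.88) or replicate 2 at 0 h (0.95) of that line. The array's 75th percentile, by which all values are divided, was 722 and 896 intensity units on the arrays of the line labelled knockdown at 24 h, against 1011 to 1435 on the other arrays. Its part in the ferritin changes was not tested. The Fth1 probe lies at mm9 chr19:10059485-10059544 and the Ftl1 probe at chr7:52713309-52713368. Ferritin genes have near-identical copies elsewhere in the genome, and a probe can take up their transcripts too.

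Slc40a1 encodes ferroportin, the iron exporter. Its probe, at mm9 chr1:45965255-45965314, was not well above background on 7 of the 8 arrays, where the processed signal was 3.18 to 17.7 intensity units. On replicate 1 of the control line at 24 h it was 90.2 units and well above background, but on its duplicate it was 9.99 units. The signal of 1 spot on 1 array is therefore not borne out by the duplicate of the same group. No fold and no test are given, and the lack of signal gives only an upper bound on its level.

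Aco1 encodes cytosolic aconitase, which acts as iron regulatory protein 1 when it has lost its iron-sulphur cluster. The line labelled knockdown had a level of -3.25 and -3.44 at 24 h, against -3.34 and -3.39 at 0 h, which overlap. The control arrays gave -3.45 and -3.45 at 24 h, against -3.69 and -3.85 at 0 h. The log2 change was 0.03 ± 0.09 in the line labelled knockdown (limma adjusted p = 0.81) and 0.32 ± 0.09 in the control line (limma adjusted p = 0.026). At 0 h the line labelled knockdown was 1.32-fold higher (log2 difference 0.40 ± 0.09, limma adjusted p = 0.045). Over the other scalings that difference ran from 0.24 to 0.48, and the change in the control line from 0.15 to 0.25. These differences were under 2-fold, and the 2 inductions did not differ by the test (-0.29 ± 0.13, limma adjusted p = 0.18).

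Ireb2 encodes iron regulatory protein 2, which is degraded when iron is plentiful. Its level in the line labelled knockdown was -2.89 and -3.05 at 24 h, against -2.77 and -2.46 at 0 h. For the control line the values were -2.58 and -2.53 at 24 h, against -2.78 and -2.64 at 0 h. The lowest values were the 2 arrays of the line labelled knockdown at 24 h. The log2 change was -0.35 ± 0.12 in that line (limma adjusted p = 0.046) and 0.15 ± 0.12 in the control line (limma adjusted p = 0.33), with a difference between the inductions of -0.51 ± 0.17 (limma adjusted p = 0.11). Over the other scalings the change in the line labelled knockdown ran from -0.61 to -0.056. Ireb2 thus stayed under 2-fold throughout. The Aco1 probe lies at mm9 chr4:40145780-40145839 and the Ireb2 probe at chr9:54756566-54756625. Both proteins act after transcription, and their activity was not measured.

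The genes whose profile over the 8 arrays lay closest to that of Slc11a1, by Euclidean distance between values centred on each gene's mean, were Cebpd at 0.33, Gpr34 at 0.37 and Ncf1 at 0.37. Cebpd encodes C/EBPδ, a relative of the induced factor, and Ncf1 a subunit of the phagocyte NADPH oxidase. Their log2 changes were 5.26, 5.15 and 5.32 in the line labelled knockdown and 5.06, 5.22 and 5.08 in the control line. Closest to Tfrc were Nefh at 0.31, a neurofilament subunit, the unnamed probe A_52_P182520 at 0.41 and Gm3556 at 0.42. The log2 change of Nefh was -3.19 in the line labelled knockdown and -1.77 in the control line. The arrays share 2 time points and 2 lines, so many genes lie close to any one of them, and the order describes these arrays only.

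Other genes of iron handling were described through 6 lists, chosen with earlier results of these data known. In the list of cellular and endosomal iron transport, 8 of 16 genes were tested, and 6 rose in the line labelled knockdown, where 16.7% of all genes rose. In the control line 3 rose, where 14.2% of all genes did, and none was lower in either line. The median log2 change was 1.30 in the line labelled knockdown and 0.86 in the control line, beside the same all-gene medians of 0.14 for the line labelled knockdown and -0.00012 for the control line. The other 8 genes of this list stayed dim, so the counts cover only genes with signal in at least 1 group. Lrp1, an endocytic receptor that takes up haem bound to haemopexin, rose by 4.39 ± 0.10 in the line labelled knockdown (limma adjusted p = 1.6e-06) and by 3.91 ± 0.10 in the control line (limma adjusted p = 2.9e-06). Slc39a14, a plasma membrane metal importer, rose by 1.22 ± 0.09 in the line labelled knockdown and by 1.96 ± 0.09 in the control line, and the difference of -0.73 ± 0.13 had an adjusted p of 0.021 in limma without reaching 2-fold. Lcn2, which binds bacterial siderophores, rose at least 2.80-fold in the line labelled knockdown and at least 2.69-fold in the control line, and no 0 h array of either line was well above background for it. The call was lost under 9 of 18 alternatives in the line labelled knockdown and 11 of 18 in the control line. With quantile normalization the log2 change of Lcn2 was 0.43 in the line labelled knockdown and 0.55 in the control line, and without replicate 2 of the line labelled knockdown at 24 h it was 0.86 in that line, all below those bounds. The summed level of 7 neutrophil markers was 35.0 to 48.6 times the 75th percentile at 24 h, against 0.367 to 0.492 at 0 h. Camp made up most of that sum, at a log2 level of 5.56 in the line labelled knockdown and 4.96 in the control line at 24 h, while S100a9, Ngp, Ltf and Mpo were not well above background on any array. S100a8 rose in both lines and was lower by -4.30 on the log2 scale in the line labelled knockdown at 24 h (limma adjusted p = 0.0040). The part of these markers in the change of Lcn2 was not tested. Mcoln1, an endolysosomal cation channel, rose by 1.04 ± 0.09 in the line labelled knockdown, a call lost with median scaling (0.79) and without replicate 2 at 0 h (0.94). Slc22a17, a receptor of Lcn2, rose by 1.38 ± 0.34 in that line, a call lost with quantile normalization and in the authors' deposited table (0.81) and without replicate 2 at 0 h (1.27) or at 24 h (1.11). In the control line the log2 change was 0.86 ± 0.09 for Mcoln1 and 0.85 ± 0.34 for Slc22a17, without a call. The inductions did not differ by limma's test for Mcoln1 (0.18 ± 0.13, adjusted p = 0.40) or Slc22a17 (0.53 ± 0.47, adjusted p = 0.50). With median scaling Slc39a14 in the line labelled knockdown was 0.97 and not called. With quantile normalization Lrp1 was 3.29 in the line labelled knockdown and 3.08 in the control line, and still called.

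Tfr2, the transferrin receptor known as a sensor of transferrin saturation in liver, differed between the lines. The line labelled knockdown had a level of -3.67 and -3.87 at 24 h, against -5.50 and -5.29 at 0 h. Control cells had -3.66 and -3.66 at 24 h, against -3.94 and -3.79 at 0 h. Only the 0 h arrays of the line labelled knockdown stood apart, and 1 of those 2 was not well above background. Tfr2 was lower at 0 h by -1.52 ± 0.11 on the log2 scale (limma adjusted p = 0.0024), and its inductions differed by 1.41 ± 0.15 (limma adjusted p = 0.0083). This is the opposite sign to Tfrc. The call at 0 h was lost with normexp background correction (-0.68) and with quantile normalization or in the authors' deposited table (-0.59). With quantile normalization the Tfr2 difference between inductions was 0.45, and it was no longer called.

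In the list of iron sensing, ferritin turnover and the hepcidin axis, 11 of 15 genes were tested and 4 passed the test as higher in each line, with none lower, beside 16.7% of all genes that rose in the line labelled knockdown and 14.2% in the control line. Hamp and Zfp36 are among the 4 in each line. Both passed the filter on dim probes only through 24 h groups, which favours a call as higher, so these counts carry that bias. Nfe2l2, which encodes the oxidative stress factor Nrf2, rose by 1.77 ± 0.06 in the line labelled knockdown and by 1.68 ± 0.06 in the control line. Bach1, a haem-sensing repressor, rose by 1.10 ± 0.06 in the line labelled knockdown (0.85 and not called with median scaling) and had a log2 change of 0.90 ± 0.06, under 2-fold, in the control line. Zfp36, which encodes an mRNA decay factor, rose by 3.38 ± 0.59 in the line labelled knockdown, where 1 of its 2 arrays at 0 h was well above background, and at least 9.79-fold in the control line. With quantile normalization the log2 change of Zfp36 was 1.58 in the line labelled knockdown and 1.74 in the control line, still called and below that bound. Hamp, the hormone hepcidin, rose at least 2.98-fold in the line labelled knockdown, while in the control line it passed the test with no array well above background, so no fold is given. With quantile normalization and in the authors' deposited table the log2 change of Hamp was 0.88 in the line labelled knockdown and 0.54 in the control line, neither called. The median of the 11 was 0.60 in the line labelled knockdown and 0.84 in the control line, beside all-gene medians of 0.14 in the line labelled knockdown and -0.00012 in the control line.

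Fbxl5 encodes the iron-sensing subunit of the ubiquitin ligase that marks iron regulatory protein 2 for degradation. Its level in the line labelled knockdown was 0.99 and 0.87 at 24 h, against -0.02 and 0.14 at 0 h. The control arrays gave 1.92 and 1.90 at 24 h, against 0.04 and -0.01 at 0 h. The lines overlapped at 0 h and stood apart at 24 h, by -0.98 ± 0.08 (limma adjusted p = 0.0029). The log2 change was 0.87 ± 0.08 in the line labelled knockdown, under 2-fold, and Fbxl5 rose by 1.89 ± 0.08 in the control line (limma adjusted p = 1.1e-05). The inductions differed by -1.02 ± 0.11 (limma adjusted p = 0.0078), at the edge of the 2-fold line. With median scaling it was -1.17 with an adjusted p of 0.11 in limma. Leaving out replicate 2 of the line labelled knockdown gave -0.95 when the 0 h array was left out and -0.97 when the 24 h array was, and neither was called.

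Of 8 tested genes of haem synthesis, the line labelled knockdown had 2 that fell, where 15.4% of all genes fell, and the control line 1, where 13.1% did, so these counts are near the background. Alad, an early enzyme of the pathway, fell by 2.03 on the log2 scale in the line labelled knockdown and by 1.65 in the control line (SE 0.09 each). Cpox, which makes protoporphyrinogen, fell by 1.01 in the line labelled knockdown, a call lost under 5 of 19 alternatives, with values from -0.98 with normexp to -0.91 without replicate 1 of that line at 24 h, and also without replicate 2 at 0 h. In the control line, where it was not called, its level was -0.22 and -0.0072 at 24 h, against 0.91 and 0.81 at 0 h. The median of the 8 was 0.05 in the line labelled knockdown and -0.01 in the control line. Of 8 tested genes of haem breakdown and transport, 3 rose in each line, beside 16.7% of all genes in the line labelled knockdown and 14.2% in the control line, and the median was 0.85 in the line labelled knockdown and 0.67 in the control line. Among the genes that rose, Hp passed the filter on dim probes only through 24 h groups.

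Hmox1, the haem oxygenase that frees iron from haem, had a level of 2.74 and 2.54 at 24 h in the line labelled knockdown, against 1.05 and 0.93 at 0 h. For the control line the values were 2.43 and 2.31 at 24 h, against 0.93 and 0.97 at 0 h. It rose by 1.65 ± 0.09 in the line labelled knockdown and by 1.42 ± 0.09 in the control line. Blvrb, a biliverdin reductase, rose by 2.01 ± 0.07 in the line labelled knockdown and by 1.4 ± 0.07 in the control line. Hp, haptoglobin, which binds free haemoglobin, rose at least 1541-fold in the line labelled knockdown and at least 1379-fold in the control line. With quantile normalization the log2 change of Hp was 8.59 in each line, still called and below those bounds. The summed level of 11 erythroid markers was 0.52 to 0.75 times the 75th percentile at 24 h, against 0.46 to 0.64 at 0 h. Hba-a2, Epor and Ermap were well above background on all 8 arrays and Hba-a1 on 4, none of these 4 was called, and Gata1, Epb42 and Hbb-bt were not well above background on any array.

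Of 19 tested mitochondrial genes, the line labelled knockdown had 1 higher and 2 lower, beside 16.7% of all genes higher and 15.4% lower. The control line had 1 higher and 1 lower, beside 14.2% of all genes higher and 13.1% lower. Hspa9, the mitochondrial chaperone, fell by 1.03 (-0.98 and not called without replicate 2 at 24 h) and Lyrm4, a partner of the cysteine desulphurase, rose by 1.45 ± 0.10 in the line labelled knockdown, while Iba57 rose by 1.28 ± 0.06 in the control line. Each went the same way, uncalled, in the other line. Control levels of Hspa9 were 4.26 and 4.19 at 24 h, against 5.24 and 5.09 at 0 h. Those of Lyrm4 were 0.77 and 0.58 at 24 h, against -0.18 and -0.30 at 0 h. Iba57 in the line labelled knockdown had 0.15 and 0.15 at 24 h, against -0.82 and -0.75 at 0 h. None of the 11 cytosolic assembly genes was called in any of the 5 comparisons, although 16 of their adjusted p values in limma were under 0.05 with changes under 2-fold.

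**Figure D4:**
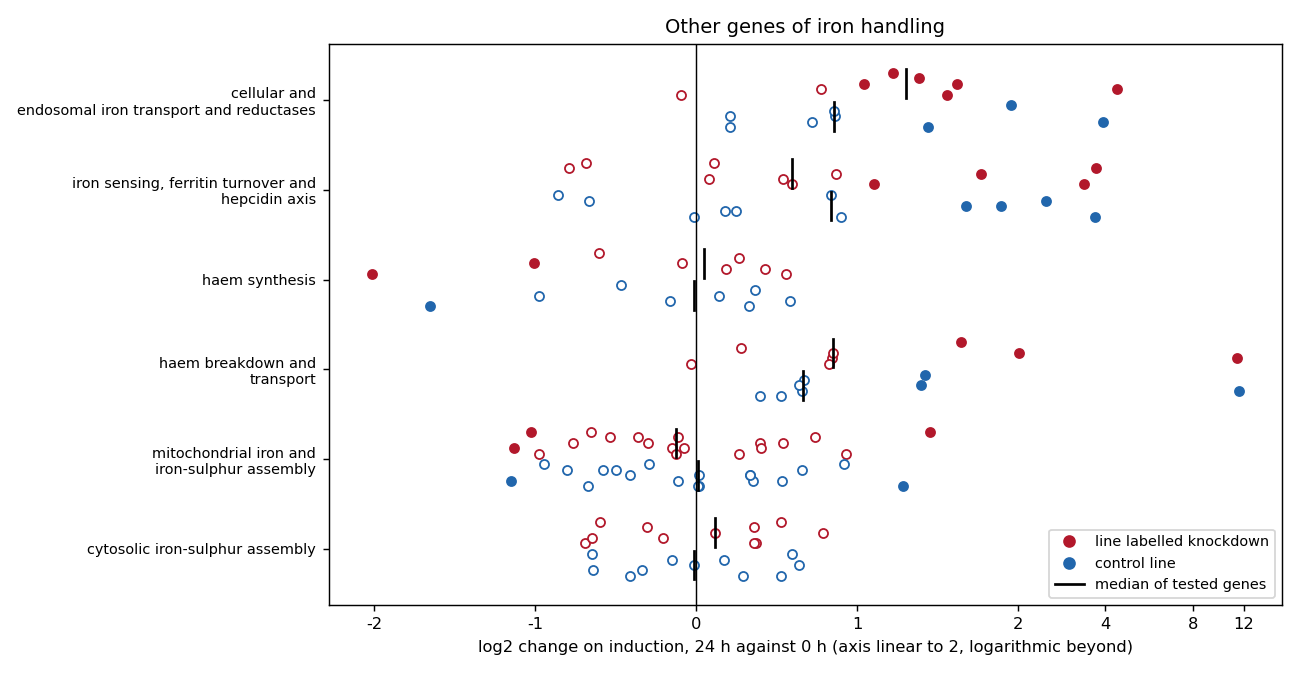
Log2 change on induction (horizontal axis, linear to 2 and logarithmic beyond) of each tested gene in the 6 lists, with the line labelled knockdown above the control line. Filled points were called, open points were not, the black bar is the list's median, and values of genes not above background at 0 h, such as Hp, are fitted values: most genes of iron transport and haem breakdown lie to the right of 0, and the iron-sulphur lists spread around 0.

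The background itself depended on scaling. The median change of all genes on induction in the line labelled knockdown was 0.14 here, -0.11 with median scaling and 0.000195 with quantile normalization. Of all genes called there, 52.0% were higher here, against 39.1% with median scaling. Of those called for the difference between the inductions, 61.8% were higher here, against 48.1% with median scaling and 74.1% after normexp background correction, and at 0 h the shares were 19.4% here and 6.06% after normexp. The arrays differed in brightness, with a 75th percentile from 722 to 1435 intensity units. On each, 47.4% to 55.6% of probe spots were well above background and no spot was saturated. The correlation between duplicates was 0.992 to 0.994.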

How the data were processed

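Gene expression in C10 cells was measured on 8 Agilent 1-colour arrays, in 4 groups of 2 arrays by the labels. Per the file headers, the deposited intensity of each spot is a processed signal made with Feature Extraction 10.7.3.1 (protocol GE1_107_Sep09), with the local background subtracted and no scaling between arrays, and probes are placed on build mm9. Subtraction is not its only step. On replicate 1 of the control line at 24 h the brighter Slc11a2 probe had a processed signal of 1237 units, above its mean signal of 1076. The other steps of that software were not examined. In the deposited table the values are log2, with a median of 6.844 on every array, and the submitters' processing notes name limma without a version. Background correction, normalization and RNA handling beyond the labels are not given in the sources used here. Normexp background correction with quantile normalization, run here as an alternative, gave the same all-gene call counts as the deposited table in every comparison.

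From the intensities, log2 of the processed signal minus the array's 75th percentile was computed, outlier spots were left out, spots of a probe were averaged, and a probe was kept where both arrays of any group were well above background. This left 20306 probes and 16153 genes. Names came from a RefSeq table of build GRCm38.p6 (11620 genes through an accession, 580 a symbol, 89 a synonym), while 3864 retained the name in the files. A model of 4 group means was fitted with limma 3.58.1 in R 4.3.3 (package data.table, version 1.17.8). It left 4 residual degrees of freedom and was tested on simulated data. All tests were two-sided. The arrays' number limits the precision.

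Where no array of a group was well above background, folds are bounds against the lowest signal well above background on each array. The replicate number marks a shared slide in the file headers. Deviations of same-slide arrays correlated at 0.298 to 0.412 over the 6 pairs of groups, so the numbers pair the arrays.

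The members, the lists and the tests were chosen with earlier results of these data known. Named besides the members are Tet2, up to 4 called genes of each list with the largest changes per induction, every listed gene called between the lines or between the inductions, and the 3 nearest profiles of the 2 members that moved most. Of 6 marker lists, the 7 T cell, 7 stromal and 7 neutrophil markers summed to 3.42 to 5.59, 0.174 to 0.368 and 35.0 to 48.6 times the 75th percentile at 24 h, against 2.09 to 2.84, 0.0532 to 0.0951 and 0.367 to 0.492 at 0 h. The alternatives covered background correction, scaling, the deposited log2 table, the probe filter, the choice of probe, the slide as a block, the fold minimum and each array left out. Some called genes of the lists are counted and not reported by name here.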

Additional observations from a re-analysis of the deposited data

Results flagged for a closer look

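The inductions of 3 genes differed between the lines by the test of that difference. For Tfrc, the induction in the line labelled knockdown minus that in control cells was -1.36 on the log2 scale. The call held under all 19 alternatives, which are not independent settings. For Tfr2 it was 1.41, and it was lost under 5 of 18 alternatives, with values down to 0.45. For Fbxl5 it was -1.02, and it was lost under 5 of 19 alternatives, with values from -1.17 to -0.95. With 2 arrays a group, no outlying array was tested for.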

How the results depend on the processing

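The 8 tested iron genes in 5 comparisons gave 40 results, each recomputed under 19 alternatives. The alternatives are not independent, since quantile normalization and the deposited table gave equal values and dropping the fold minimum can only add calls. Of these 760 values, 708 kept their direction and their side of the threshold, 12 gained a call, 10 lost it and 30 changed sign, and none of the 30 had an adjusted p under 0.05. Tfrc and Slc11a1 kept their calls in both inductions under all 19: Tfrc ranged from -3.24 to -2.77 in the line labelled knockdown and from -1.74 to -1.51 in control cells, and Slc11a1 from 4.75 to 5.06 in the line labelled knockdown and from 4.797 to 5.03 in control cells. With the replicate block (slide) no iron gene's call changed, and the Tfrc difference between the inductions was -1.36 (limma adjusted p = 0.0047).

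Without the 2-fold minimum, 6 iron genes passed in the control induction, 2 at 0 h and 1 at 24 h, and the lists of transport, sensing, haem synthesis, haem breakdown, mitochondrial and cytosolic genes had 18, 25, 12, 18, 36 and 16 calls over the 5 comparisons, against 11, 9, 3, 6, 5 and 0. On induction in the line labelled knockdown, 2 iron genes were called with quantile normalization and in the authors' deposited table, against 4. Calls of the transport list fell to 6 with normexp, 5 with quantile normalization or the deposited table, and 6 over probes measured on all 8 arrays, where those of the sensing list fell to 5, and calls of the mitochondrial list were 8 with median scaling. Leaving out 1 array gave 2 to 3 iron genes in the control line, 3 to 4 in the line labelled knockdown and 7 to 11 calls for the transport list, with 7 without replicate 2 of the line labelled knockdown at 0 h.

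Sign changes were small. With median scaling Slc11a2 was -0.14 in the line labelled knockdown and -0.031 in the control line, -0.017 at 24 h and -0.11 for the difference between inductions, Aco1 was -0.22 in the line labelled knockdown, Ftl1 0.072 at 0 h, the Slc11a1 difference between inductions -0.14, and Tet2 -0.062 at 24 h and -0.030 for that difference. With the 75th percentile over probes measured on all arrays, Slc11a2 was -0.0126 at 0 h and Aco1 -0.0125 in the line labelled knockdown. With quantile normalization and in the deposited table, Aco1 was -0.085 in the line labelled knockdown, Ftl1 0.099 at 0 h, Fth1 -0.22 at 24 h, and the differences between inductions were -0.18 for Fth1 and -0.0030 for Ftl1. The mean of the Steap3 probes gave 0.065 at 24 h. Leaving out 1 array, values ran from -0.061 to 0.097 (0 h), -0.031 to 0.13 (24 h) and -0.049 to 0.11 (difference between inductions) for Slc11a2, from -0.080 to 0.070 at 0 h for Ftl1, from -0.057 to 0.25 at 0 h for Ireb2, from -0.068 to 0.12 in the line labelled knockdown for Aco1, from -0.055 to 0.066 for the Slc11a1 difference between inductions, and from -0.059 to 0.070 at 24 h for Tet2. The causes were not tested.

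Over all genes tested, calls without the 2-fold minimum numbered 11016 on induction in the line labelled knockdown against 5194 with it, 9989 against 4408 in the control line, 2236 against 329 between the lines at 24 h, 2177 against 279 at 0 h and 2626 against 617 for the difference between inductions. Among alternatives that left out no array, the lowest counts were 147 at 24 h over probes measured on all 8 arrays, 94 at 0 h with normexp and quantile normalization and 121 for the difference between inductions with no filter on dim probes.

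The 2 arrays a group are technical duplicates, so no value here carries the spread between cultures. Dim probes limit Slc40a1, the splice-crossing Tfrc probe at 24 h, Tfr2 and Hamp. The within-slide runs were made for the iron genes, and alternatives for the lists were added after the data were seen.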
